A study of Triticum aestivum with 78 samples.

Results

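GLU1A (TaGlu1a) is a beta-glucosidase gene of hexaploid wheat, read on the array by the single probe set Ta.4601.2.S1_at. It was chosen because its level differed widely between the lines of these same data, so its levels over the lines are given as a description, with no test. It is 1 of 771 genes with a symbol in the array's annotation. All probe sets of the same sequence cluster, which share the start of the identifier, were taken with it, which gave 2 of the 61115 probe sets analysed. The other one, Ta.4601.1.S1_s_at, has no annotated gene.

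The samples were 78 Affymetrix wheat arrays of developing seed taken 5 days after anthesis. They came from 39 lines of a mapping population made by crossing RL4452 with AC Domain, with 2 biological replicate arrays per line. Plants stood in a field trial of 49 entries in 3 replications, and the labels tie no array to a field replication. All groups share tissue, stage and field, and differ in genotype alone as far as the labels say; arrays of the parents were not analysed here, so no allele can be assigned to a parent. Levels below are log2 RMA intensities, and a line mean is given with its SD over 2 arrays, a small number that limits its precision. RNA came from whole seed, so fewer cells of a type cannot be told apart from less RNA per cell.

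Beta-glucosidases cut glucose from small glycosides. In wheat, the GLU1 enzymes act on the glucosides of benzoxazinoids, defence compounds of grasses, and release the toxic aglycone when tissue is damaged. The stored glucoside and the enzyme are kept apart in the intact cell. GLU1 enzymes are best known from young wheat seedlings. In the Chinese Spring RefSeq v2.1 annotation GLU1A and GLU1B lie on chromosome 2B, GLU1C on 2D and GLU1D on 2A. No probe set of the array carried the name of GLU1B, GLU1C or GLU1D, so a share of the GLU1A signal that came from these copies could not be told apart.

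The whole series sets the scale for these values. Array medians lay between 32.1 and 36.4 intensity units. The median over all probe sets of their mean level was 5.07 log2 units, called the median level here, and GLU1A lay above it on all 78 arrays. The replicate numbers coincided with 2 scan campaigns of 39 arrays each, spread over 15 scan days, of which 1 held arrays of both replicate numbers. The wash records of 3 arrays (B68 replicate 2, D15 replicate 2 and H8 replicate 1) differed from the rest. Between lines, limma's moderated F called 4088 of 61115 probe sets at an adjusted p below 0.05, which is 6.69%, and both probe sets of the cluster were among them. Without H8 replicate 1 the count was 10729. Since the choice of GLU1A used this contrast, nothing is read from that count.

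The median level is no threshold of detection. GLU1A signal lay above it in seed of every line and varied gradually from line to line. Over the 78 arrays its lowest level was 6.11, its median 8.63 and its highest 10.51, or 69.2 to 1457 intensity units, a 21.1-fold span. Line means ran from 10.06 in A77 to 6.17 in C25, a difference of 3.89 log2 units or 14.8-fold. The SD between lines was 0.98, the 449th largest of the 61115 probe sets.

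The highest line was A77, with 10.51 on its replicate 2 array and 9.61 on its replicate 1 array (10.06 ± 0.63). C31 followed with 9.90 and 9.72 (9.81 ± 0.13), in the same order of replicates. F36 had 9.50 and 9.91 (9.71 ± 0.29). These were ahead of A40, with 9.38 and 9.96 (9.67 ± 0.41), and of B11, with 9.25 and 9.43 (9.34 ± 0.13). All 10 arrays of these 5 lines lay at 9.25 or above. The neighbours in this order overlapped in their replicate arrays, so the order within the 5 lines is not resolved.

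At the lower end, G30 was the 35th line, with 6.85 on its replicate 2 array and 7.17 on its replicate 1 array. The 5 lowest lines began there and went on with C22, at 6.30 and 7.45 (6.87 ± 0.81). F29 had 7.26 and 6.34 (6.80 ± 0.65). F87 had 6.76 and 6.35 (6.55 ± 0.29), and C25 closed the order with 6.11 and 6.23 (6.17 ± 0.08). The arrays of these 5 lines lay between 6.11 and 7.45, and none reached the lowest array of the 5 highest lines. The lowest array of C25 still stood above the median level.

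Most lines lay between these ends, with a median line mean of 8.57 in H5 and quartiles at 9.05 and 7.67. F38a, with 8.80 and 8.64 on its replicate 2 and replicate 1 arrays, had a mean of 8.72 ± 0.11. F38b, whose name differs from it by a letter, had 8.18 and 8.28, a mean of 8.23 ± 0.07. The arrays of F38a were all above those of F38b, but the 0.49 log2 units between the means are less than the residual SD between replicate arrays, 0.64.

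**Figure D1:**
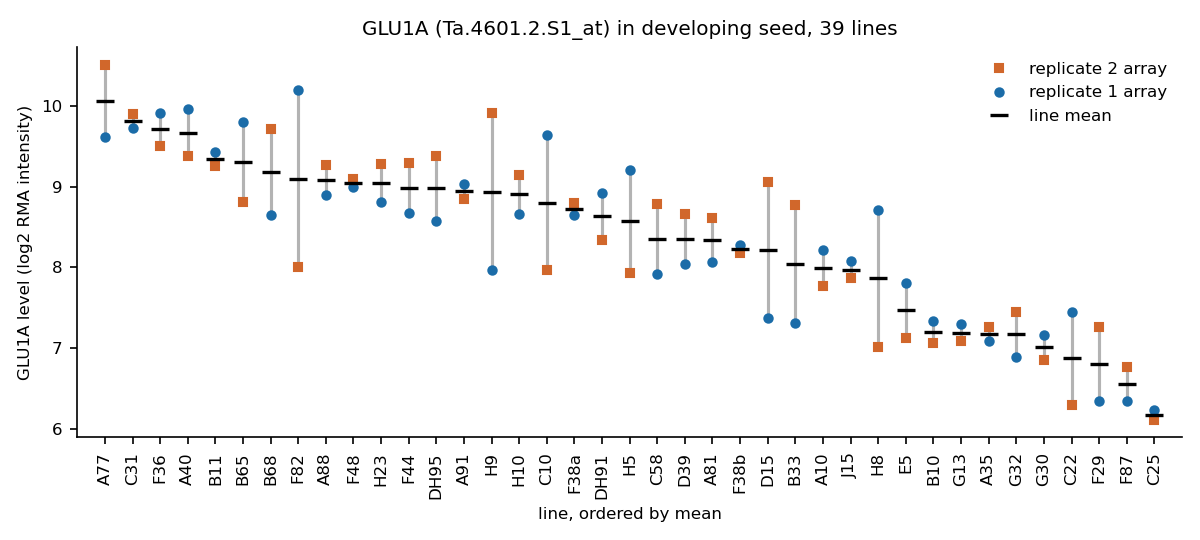
The level of GLU1A in log2 RMA intensity (vertical axis) is plotted for each of 39 lines (horizontal axis, ordered by mean). Squares are replicate 2 arrays, circles replicate 1 arrays and bars line means, which run from 10.06 in A77 to 6.17 in C25 with no wide step between neighbours.

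No split of the lines into classes of GLU1A level met the rule used here. A split was described only by the widest step in the order of line means with 6 or more lines to either side, and counted as one if the step reached 0.5 log2 units and 2 residual SDs. The widest such step was 0.40, between H8 at 7.87 and E5 at 7.47, with 29 lines above and 10 below. It came to 0.63 residual SDs. Single arrays moved this step: it was 0.67 without E5 replicate 1 and 0.61 without E5 replicate 2, still short of the rule. None of the 38 gaps between neighbours exceeded the residual SD, so no line was set apart from its neighbour in the order by more than the spread between replicates. Within replicate 2 the largest such gap was 0.32 and within replicate 1 it was 0.36, each with 28 lines above and 11 below. With 2 arrays per line and a residual SD of 0.64, overlapping classes could miss this rule, so it cannot show that there are none.

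Replicate arrays of a line followed each other in part. Over 39 lines the replicate levels had a Pearson r of 0.65 and a Spearman rho of 0.61, given as a description. The intraclass correlation, which sets the variance between lines against that of all arrays, was 0.65. A residual SD of 0.64 log2 units corresponds to a 1.55-fold spread between arrays of a line. The median difference between the 2 arrays of a line was 0.56, and 18 lines differed by less than 0.5.

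A few lines owed their place to arrays that disagreed. F82, the eighth line, had 8.00 on its replicate 2 array and 10.19 on its replicate 1 array, a difference of 2.19. H9 had 9.91 and 7.96, and H8 had 7.02 and 8.72. D15 had 9.06 and 7.37, and C10 had 7.97 and 9.64. In these 5 lines 1 array lay above the median line mean and the other at 8.00 or below, so each mean stands between arrays that lie far apart. B33, H5, C22 and B68 also differed by more than 1 log2 unit, which makes 9 lines in all.

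The arrays with an unusual wash record were the higher of their pair in 3 of 3 lines. B68 replicate 2, whose wash was aborted, had 9.72, against 8.64 on the other array of B68. D15 replicate 2, with no protocol recorded, had 9.06 against 7.37. H8 replicate 1, washed with another protocol, had 8.72 against 7.02. The part of the wash in these levels was not tested. Without the 3 arrays the range of line means was 3.89, as it had to be, since neither end line, A77 or C25, holds one of them. The unchanged range thus says nothing about the wash. The intraclass correlation was then 0.71.

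Replicate 2 was compared with replicate 1 to see whether the level moved with the scan campaign, a contrast that the choice of the gene had not used. GLU1A averaged 8.37 ± 1.10 on replicate 2 arrays and 8.34 ± 1.07 on replicate 1 arrays (SD, n = 39 each). The difference with line as a block was 0.03 (SE 0.14, 95% confidence interval -0.25 to 0.31), and limma's adjusted p was 0.908. Replicate 2 was higher in 20 of 39 lines. In this contrast limma called 28.7% of all probe sets, 15.5% higher and 13.2% lower in replicate 2. GLU1A was not among them, and the interval leaves room for a shift of up to 0.31 log2 units.

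GLU1A was also set against measures of the whole array, within each replicate number. These were the array median and the first principal component of the probe sets above the median level, which held 18.7% of their variance and whose sign is arbitrary. Within replicate 2 arrays, the component had an r of 0.00 with GLU1A (permutation p = 0.991) and a rho of -0.04. Within replicate 1 arrays, r was -0.35 (permutation p = 0.0285, adjusted over 4 comparisons 0.114) and rho was -0.44 (permutation p = 0.00554, adjusted 0.0222). Without the 2 arrays farthest from the median of the component, r in replicate 1 was -0.38. The array median had an r of -0.12 in replicate 2 and -0.02 in replicate 1 (adjusted permutation p = 0.962 and 0.991). An association with the array-wide component was thus found by rank in replicate 1 and not in replicate 2. By Pearson r it passed in replicate 1 after a further quantile normalization of the arrays, tried after the data were seen (r = -0.36, permutation p = 0.0225, adjusted 0.0449). That adjustment was over 2 comparisons and not 4, while the unadjusted p was close to the 0.0285 found before, so the pass rests on the smaller number of comparisons. The difference between the replicates was not tested.

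The second probe set of the cluster, Ta.4601.1.S1_s_at, did not share the spread of GLU1A. In the maker's naming, the s in its suffix marks probes shared by more than 1 transcript, so its signal need not come from GLU1A alone. Its arrays ran from 11.21 to 12.59, with a median of 12.10. Its line means ran from 12.46 in DH95 to 11.42 in H8, a 2.06-fold range, and its SD between lines was 0.29. A77, highest for GLU1A, had 12.19 and 11.59 on its replicate 2 and replicate 1 arrays here. C25, lowest for GLU1A, had 11.79 and 11.57, so the arrays of both lines overlapped.

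No relation was detected between the line means of the 2 probe sets. Pearson r over 39 lines was 0.0022 (two-sided permutation p = 0.989) and Spearman rho was 0.02 (permutation p = 0.886). Within replicate 2 r was 0.04, within replicate 1 it was -0.02, and across replicates, with no array shared, it was 0.02 and -0.03. Without the 2 lines farthest from the median of GLU1A it was -0.12. Of the 35390 probe sets outside the cluster that reached the median level in at least 1 line, 18566 had a higher r with GLU1A than this one. Its own replicates had an r of 0.52 and it had an intraclass correlation of 0.50. Its difference of replicate 2 from replicate 1 was -0.09 (SE 0.05, limma adjusted p = 0.177).

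**Figure D2:**
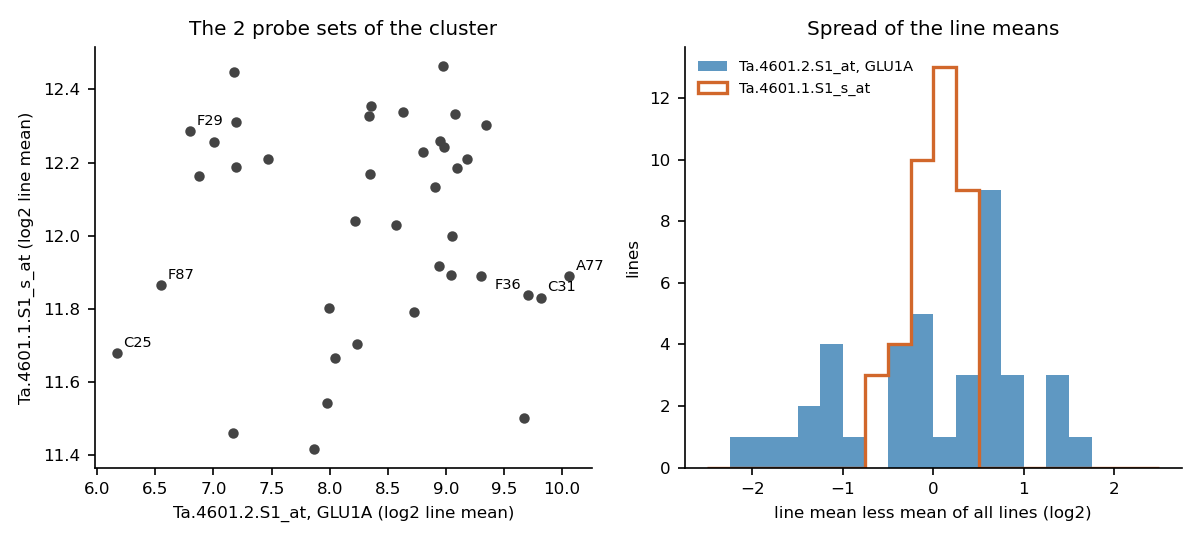
Left, line means in log2 intensity of GLU1A (horizontal axis) and Ta.4601.1.S1_s_at (vertical axis), with a point per line and the 3 highest and 3 lowest lines for GLU1A labelled; no trend is seen (r = 0.0022). Right, a count of lines by line mean less the mean of all lines, filled for GLU1A (SD 0.98) and outlined for Ta.4601.1.S1_s_at (SD 0.29).

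The probe sets most like Ta.4601.1.S1_s_at, picked after their values were seen, were likewise others than those most like GLU1A. Highest were Ta.6123.1.A1_s_at (r = 0.85) and TaAffx.4230.1.A1_at (r = 0.84), and lowest was Ta.2079.1.S1_at (r = -0.84). Its line means had an r of 0.52 with those of the array-wide component, and those of GLU1A had -0.32.

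Transcripts whose line means follow GLU1A were ranked by Pearson r over 39 lines among the 35390 probe sets. These r are the top of a long ranking and are given with no p. The median r was 0.02 with quartiles of 0.14 and -0.13, while 20 probe sets had an r of 0.6 or more and 27 had -0.6 or less. The 12 highest ran from 0.79 to 0.70, and the 13th had 0.69. The 6 lowest ran from -0.74 to -0.68, and the seventh lowest had -0.66, so neither edge of the choice is marked by a step.

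Closest to GLU1A were Ta.1337.1.S1_x_at (r = 0.79) and Ta.1337.2.S1_x_at (0.77), which belong to 1 cluster and carry the suffix for probes that may bind other transcripts. Next came Ta.28319.1.S1_at (0.77), Ta.13818.1.S1_at (0.75) and Ta.21983.1.S1_at (0.75). Ta.13334.1.A1_at (0.74), annotated as LOC542941 on chromosome 7D, is the one of the 18 chosen probe sets with a gene symbol. The rest of the 12 were Ta.25256.1.A1_at (0.73), Ta.346.1.A1_at (0.73), Ta.13751.1.S1_at (0.73), Ta.599.1.S1_at (0.71), Ta.8574.2.A1_at (0.71) and Ta.5757.1.S1_at (0.70). Opposite to GLU1A were Ta.8110.1.S1_at (-0.74), TaAffx.120331.1.A1_at (-0.71), TaAffx.63950.1.A1_x_at (-0.69), TaAffx.65722.1.S1_at (-0.69), Ta.21791.1.S1_at (-0.69) and TaAffx.128621.1.S1_at (-0.68).

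The levels in the end lines of GLU1A, which the choice of these transcripts used, differed in size from one transcript to the next. Ta.1337.1.S1_x_at had 12.76 and 12.85 on the replicate 2 and replicate 1 arrays of A77, against 11.65 and 11.54 on those of C25. Ta.13334.1.A1_at had 8.97 and 9.23 in A77, against 5.15 and 4.62 in C25. The opposite order held for Ta.8110.1.S1_at, with 9.49 and 9.81 in A77 and 10.51 and 10.33 in C25. TaAffx.128621.1.S1_at had 6.61 and 5.42 in A77, against 10.97 and 11.25 in C25. Smaller differences stood beside these. TaAffx.63950.1.A1_x_at had 6.55 and 6.57 in A77, against 7.01 and 6.89 in C25, and Ta.5757.1.S1_at had 4.88 and 5.22 in A77, against 4.61 and 4.18 in C25. Most values of Ta.5757.1.S1_at were low: 27 lines had a mean of 4.72 or less, below the median level of 5.07. It entered the ranking only through its highest lines, up to 5.76 in B68.

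The widest ranges were those of TaAffx.128621.1.S1_at, from 11.62 in A35 to 5.65 in B65 (62.6-fold), and of Ta.13334.1.A1_at, from 10.00 in A40 to 4.88 in C25 (34.7-fold). The second range holds for intensities only, since 4.88 lies below the median level. Over the 12 highest the median range was 3.91-fold, and over the 6 lowest it was 2.99-fold. In limma's F test 11 of the 12 and 5 of the 6 differed between lines, where 10.7% of all probe sets at the median level did. A transcript that follows GLU1A over lines must itself vary between lines, so nothing is read from that share. None of the 18 divided the lines into classes by the rule used for GLU1A, and the widest gap was 1.18 residual SDs, at TaAffx.63950.1.A1_x_at.

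**Figure D3:**
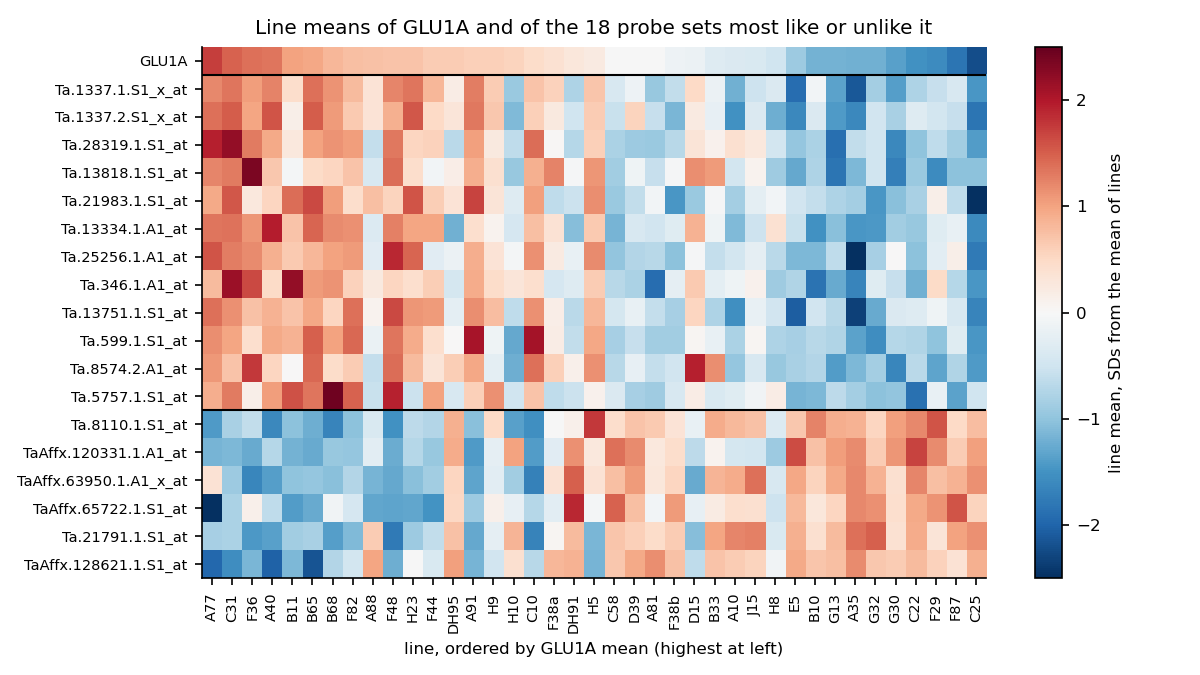
Line means of GLU1A (top row), of the 12 probe sets with the highest r and of the 6 with the lowest r, in SDs from the mean of the 39 lines (colour), with lines ordered from the highest GLU1A mean at the left to the lowest at the right. The 12 are mostly red at the left and blue at the right, the 6 the reverse, with exceptions in single lines such as H10 and DH91.

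The chosen probe sets were closely related among themselves. The 66 pairs within the 12 highest had a median r of 0.77 (0.54 to 0.95), and the 15 pairs within the 6 lowest had 0.75 (0.69 to 0.85). The 72 pairs between the sets had a median of -0.71 (-0.88 to -0.51). All line means share the same arrays, and all 18 had been chosen for their relation with GLU1A, which ties them to each other. Their line means also moved with the array-wide component: r was -0.62 to -0.28 for the 12 highest, with a median of -0.50, and 0.38 to 0.67 for the 6 lowest, with a median of 0.55. The part of that component in the ranking was not tested.

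A likeness that arises within an array cannot enter when GLU1A is read on the arrays of 1 replicate number and the other transcript on those of the other. With GLU1A on replicate 1 and the others on replicate 2, r of the 12 highest ran from 0.39 to 0.64, with a median of 0.60. With GLU1A on replicate 2 and the others on replicate 1, it ran from 0.36 to 0.64, with a median of 0.47. For the 6 lowest the ranges were -0.68 to -0.60 and -0.56 to -0.44. Every one of the 18 kept its sign in both directions, as the plot of likeness with and without shared arrays shows. The 18 were chosen on line means that include all these arrays, so this is no independent check.

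**Figure D4:**
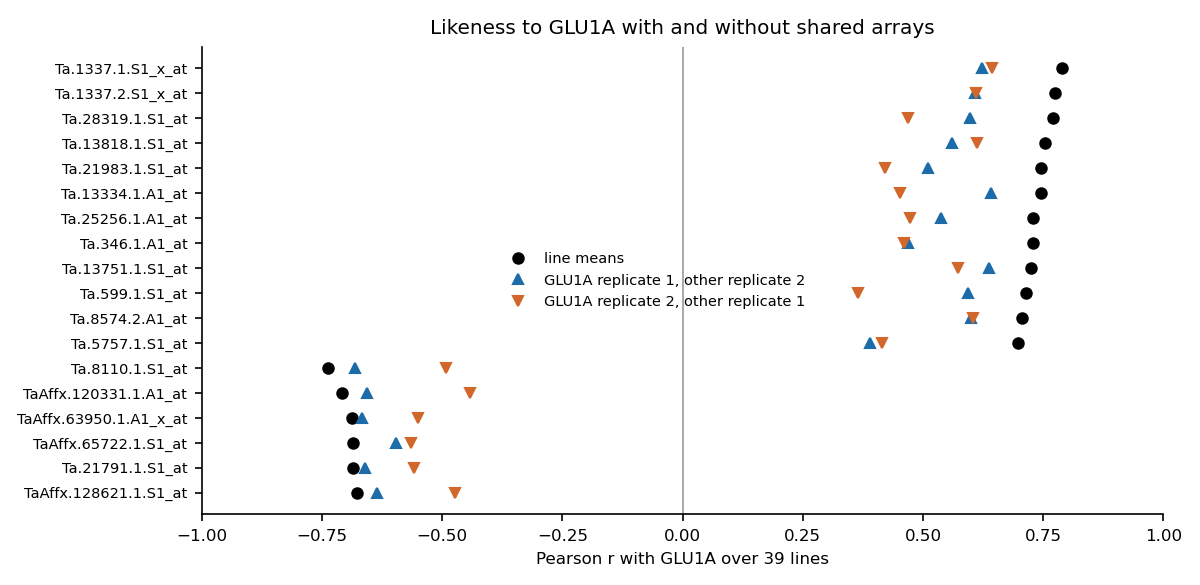
Pearson r with GLU1A over 39 lines (horizontal axis) for the 18 chosen probe sets, from line means (circles) and across replicate numbers with no shared array (triangles). Values across replicates lie nearer 0 than those of the line means, at 0.36 to 0.64 for the 12 highest and -0.68 to -0.44 for the 6 lowest.

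A choice made in 1 replicate number alone can be read in the other. The 12 probe sets with the highest r among replicate 1 arrays had an r of 0.49 to 0.73 among replicate 2 arrays, with a median of 0.66. The 6 lowest of replicate 1 had -0.68 to -0.02 there, with a median of -0.39. The 12 highest of replicate 2 arrays had 0.26 to 0.75 among replicate 1 arrays, with a median of 0.68. The 6 lowest of replicate 2 had -0.70 to -0.62 there, with a median of -0.66. Of these top 12, the choice in replicate 1 shared 9 with that of the line means, and the choice in replicate 2 shared 7. All 36 values had the sign of the choice. Within a replicate number GLU1A and the other transcript are read on the same arrays, so variation of the whole array can enter these values.

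After these values were seen, each of the 35390 probe sets was also regressed on the GLU1A level with limma. On line means 71 probe sets passed at an adjusted p below 0.05, which is 0.201%, of which 31 rose with GLU1A and 40 fell. With GLU1A from replicate 1 and the others from replicate 2, 45 passed (0.127%), of which 8 rose and 37 fell. With GLU1A from replicate 2 and the others from replicate 1, 0 passed in limma, with 2136 at an unadjusted p below 0.05. No probe set therefore passed in both directions. The 18 chosen all passed on line means, but they had been picked as the extremes of r on those same means. Nothing is read from their passing.

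Few of the transcripts with a familiar name followed GLU1A closely. Highest were a probe set of LTP3, a lipid transfer protein gene, at r = 0.45, and amy1 (also named BMY1), a beta-amylase gene of starch breakdown, at 0.40. GA20ox1d, a gibberellin 20-oxidase gene, had 0.37, cys1 had 0.35, another LTP3 probe set had 0.35 and the low-molecular-weight glutenin gene abu-7 had 0.34. Lowest were TaTPC1, a calcium channel gene, at -0.33, la-17 at -0.33, FKBP70, a peptidyl-prolyl isomerase gene, at -0.31 and TBP1, which encodes the TATA-binding protein, at -0.28. None of these 10 probe sets passed the regression, and the lowest adjusted p by limma was 0.219, for LTP3. Genes known by a locus number alone reached higher, and are named here after their values were seen: LOC542796 on chromosome 1A had 0.69 and LOC543420 on 3D had 0.64.

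Genes of related functions, taken by name, were set against GLU1A to see whether its level went with that of sugar release, seed filling or other tissues. The lists held 110 probe sets besides GLU1A, of which 74 reached the median level in at least 1 line. No other probe set was named for a beta-glucosidase, though most probe sets carry no gene symbol. For the 74, r ran from -0.25 to 0.40 with a median of 0.09, where the median of all ranked probe sets was 0.02. After adjustment over the 74, 0 passed by Pearson r (permutation test; 3 at an unadjusted p below 0.05) and 0 by Spearman rho (2 at an unadjusted p below 0.05). In limma's F test 18 of the 110 list probe sets differed between lines, where 6.69% of all probe sets did. Of these 18, 10 were on the list of inhibitors and thionins.

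Among genes of sugar release and hydrolysis, the median r was 0.10 over 7 probe sets. The largest was that of amy1 at 0.40, with a permutation p of 0.0116 that became 0.859 after adjustment. Its rho was 0.49 (permutation p = 0.00178, adjusted 0.132). The fructan exohydrolase genes, which break down fructan, had r of 0.19, 0.12 and 0.09 at the 3 probe sets of 6-FEH and -0.10 at 1-FEH. XTH, a cell wall xyloglucan enzyme gene, had 0.10 and Glc1 had -0.07.

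Endosperm genes gave no common direction with GLU1A. Storage protein genes had a median r of 0.20 over 10 probe sets, 9 of them above 0, led by abu-7 at 0.34 (permutation p = 0.0304, adjusted 0.901). Most of these probe sets were highest in F36, and within replicate 2 most had an r below 0. By rank several lay near 0, such as a probe set of gli with an r of 0.21 and a rho of 0.05. Several were repeated probe sets of ALP and avnla. Inhibitors of alpha-amylase and thionins, small defence proteins of the grain, had a median of -0.07 over 10 probe sets, 9 of them below 0. GBSS, the granule-bound starch synthase of amylose, had -0.19, and AGP-S, an ADP-glucose pyrophosphorylase subunit, had 0.01. The symbol TSA, the only one found on the benzoxazinoid list, had 0.04 and -0.11 at its 2 probe sets, but the annotation does not say what it encodes.

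Markers of other tissues and of dividing nuclei lay as close to 0. In limma's F test 0 of 18 histone, 1 of 34 photosynthesis and 0 of 6 tapetum or pollen probe sets differed between lines. A transcript that varies little between lines can show little relation with GLU1A, so these r say little about those tissues. Photosynthesis genes, as in green pericarp, had a median r of 0.09 over 15 probe sets (-0.25 to 0.27), most of them of the gene rbcl. Stress and defence genes had 0.11 over 7 (-0.03 to 0.28). Histone genes had a median of 0.10 over 18 probe sets, with 17 above 0, but most of these were repeated probe sets of H2A-9 and wcH2B-8. The list of tapetum or pollen genes had 3 probe sets, with the tapetum gene raftin1b at 0.33 (permutation p = 0.0419, adjusted 0.901). The others, of the profilin gene PRO1, had 0.13 and -0.02. PRO1 was high in seed of every line (lowest line means 11.44 and 13.31), and raftin1b lay near the median level (5.14 to 5.67). The list is thus a poor marker of anther remains. The probe set Ta.7378.17.S1_x_at of the histone gene wcH2B-8 had an r of 0.31 (adjusted permutation p = 0.901). With line means adjusted for scan day it had 0.53 and passed (adjusted permutation p = 0.0385). The other wcH2B-8 probe sets had an unadjusted r of 0.03 to 0.20 and did not pass. Highest of them after the scan-day adjustment was Ta.7378.21.S1_at at 0.33 (adjusted permutation p = 0.564).

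**Figure D5:**
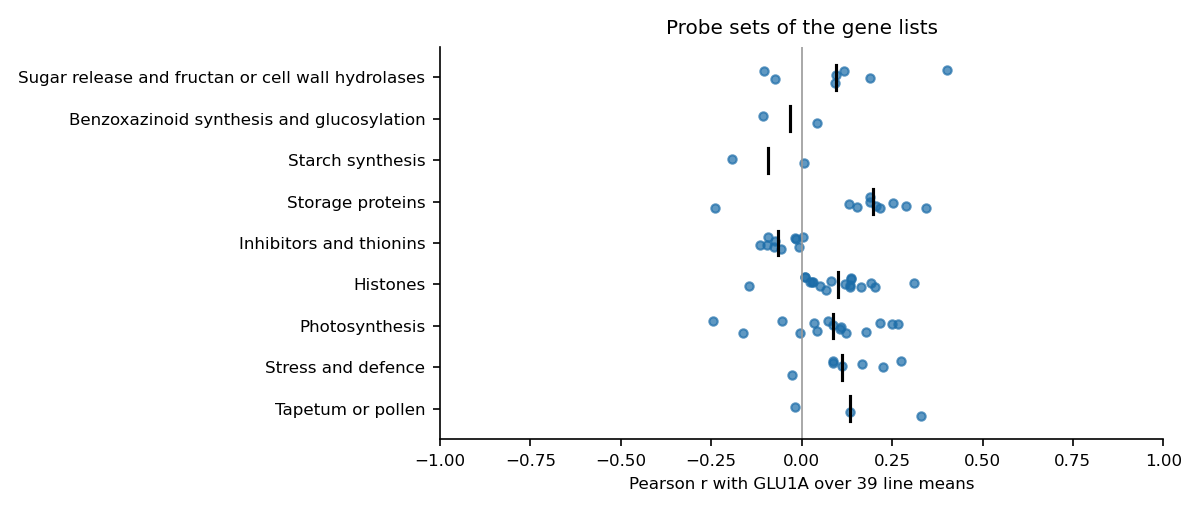
Pearson r with GLU1A over 39 line means (horizontal axis) for the 74 probe sets of 9 gene lists, with a point per probe set and a black bar at each list's median. Points lie between -0.25 and 0.40, and list medians between -0.09 and 0.20.

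Probe sets of genes on chromosome 2B had about the same median size of r with GLU1A as those elsewhere. Another 53 annotated probe sets were of genes on 2B, and the 44 of them that reached the median level had a median size of r, without sign, of 0.12. The 965 annotated probe sets elsewhere had 0.13. The nearest annotated gene on the array, LOC543171, lay 302 genes away, and the 2 probe sets of it that reached the level had an r of 0.29 and 0.22. Values on 2B ran from -0.44 to 0.53. Most of the 2B probe sets were not called between lines in limma's F test, so the comparison cannot say whether position matters.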

How the data were processed

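Poly(A) RNA of developing seed was hybridized to 78 Affymetrix wheat arrays. The deposited intensity values were made by the authors with RMA, per the submitters' processing notes (version not given in the sources used here), which subtracts background, normalizes arrays to a common distribution and summarizes each probe set. The deposited intensities were linear (5.04 to 27696), although the design had assumed log2 values, so log2 was taken here with no constant added. Scan days and wash records came from the instrument files. From 61290 probe sets, 111 controls and 64 reporters were dropped. Array precision is limited by the number of arrays, and the labels do not say whether replicates came from separate plots, so a p-value may measure technical spread. A base difference under a probe cannot be told apart from a difference in level. Gene names came from the array's annotation and the RefSeq v2.1 table, used for names and gene order; 1272 of 1273 probe sets with a symbol matched.

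The genotype effect was limma's moderated F over 39 lines (limma 3.58.1, R 4.3.3), replicate 2 against replicate 1 used line as a block, and both were adjusted by Benjamini-Hochberg over 61115 probe sets. Fits were tested on simulated data. The residual SD is that of arrays within lines. Correlations used line means, 100000 permutations (two-sided) and Benjamini-Hochberg adjustment over 74 list probe sets or 4 array measures, in Python 3.11.15 with numpy 2.4.6 and statsmodels 0.14.6. Genes named were the probe sets of the cluster, the 12 highest and 6 lowest in r, the 6 highest and 4 lowest with a name, and list members, with the 5 highest and 5 lowest lines, F38a, F38b and the lines with the largest replicate difference. GLU1A, the lists and the rules were chosen with earlier results of these data known. Alternatives were quantile normalization, scan day, a replicate block, array weights, level filters, Spearman's rho, each replicate number alone and leaving out arrays or lines. Added after the data were seen were the limma regression on GLU1A, the exclusion of 3 arrays by wash record, quantile normalization for the array measures and for the ranking of transcripts, the count of array measures passing by Spearman's rho alone, and leaving out single arrays in that ranking.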

Additional observations from a re-analysis of the deposited data

How the results depend on the processing

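The range of GLU1A line means, 3.89 log2 units, was 4.64 with scan day as a fixed term (A77 highest, F87 lowest; r = 0.97 with the unadjusted means) and 3.64 to 4.34 when single arrays were left out. The intraclass correlation stayed between 0.63 and 0.71. The 4088 probe sets called between lines became 10139 without the 3 arrays of unusual wash record and 10729 without H8 replicate 1 alone, and leaving out single arrays gave 3601 to 10729. The part of the wash in that change was not tested. The labels do not say that replicate numbers pair the arrays: over 741 pairs of lines the replicate differences had a median r of 0.14, and 56.4% of pairs were above 0.1. With a replicate block 5622 probe sets were called between lines. The GLU1A range cannot change with that block, since each line has 1 array of each replicate number. The 17527 calls between replicates became 15405 when line was not in the model, and leaving out single lines gave 15935 to 22749. The GLU1A replicate difference of 0.03 changed sign, uncalled, under quantile normalization (-0.0228) and without the lines B68 (-0.00044), H9 (-0.0236), D15 (-0.02) or B33 (-0.01); the cause was not tested. Without single lines it ran from -0.0236 to 0.0855. Of the list correlations 1 passed with scan-day-adjusted line means, for a wcH2B-8 probe set, and 0 without any single line (20000 permutations each). Of the 18 probe sets most like or unlike GLU1A, 10 were kept when ranked within replicate 1, 9 within replicate 2, 15 without the 3 arrays of unusual wash record, and 14 to 18 without single arrays. Of the array measures, none passed by Pearson r. By Spearman rho 1 passed, the array-wide component in replicate 1, and 1 passed by Pearson r after quantile normalization, that component again (r = -0.36, permutation p = 0.0225, adjusted 0.0449), over 2 comparisons since array medians then hardly varied. Raw probe intensities were not used here.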
